A study of Mus musculus with 6 samples.

Results

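The 8 genes described here, Mbp, Pmp22, Prx, Mag, Cnp, S100b, Sox10 and Egr2, are genes of peripheral myelin and of Schwann cells. They were listed by symbol and matched through the GENCODE M21 annotation to 8 of the 54393 genes in the deposited table. RNA was sequenced from the tibialis anterior, the shin muscle that lifts the foot, of adult mice. There were 3 muscles of genotype WT, whose sample names carry the prefix C57, and 3 of genotype Dock3 KO, in which the gene for the Rac activator Dock3 is knocked out. How the allele was made, the sex of the mice and whether the muscles of a group came from separate mice are not given in the sources used here, so p-values measure the spread between these muscles. Below, values of the WT group are given in the order replicates 1, 3 and 4, and those of the Dock3 KO group in the order replicates 1, 2 and 3.

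Schwann cells are the glia of peripheral nerve. The myelinating type wraps 1 axon in a sheath of compacted membrane, under the control of axonal neuregulin, which acts on the receptors Erbb2 and Erbb3, and of the transcription factors Sox10 and Egr2. The non-myelinating type covers small axons without a sheath, and terminal Schwann cells cap the nerve endings at the neuromuscular junction. In whole muscle, mRNA of these cells comes from intramuscular nerve branches and is diluted by the RNA of the muscle fibres. In such bulk samples, fewer Schwann cells and less RNA per Schwann cell cannot be told apart.

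Because Sox10 and Egr2 belong to the set and act on promoters of other myelin genes, promoter windows of the 8 genes were searched for letters that resemble their binding sites. RefSeq windows of 250 bases before to 50 bases after a start site (GRCm38.p6) were found for 6 of the 8 genes, in 15 windows. The SOX-like letters ACAAAG occurred in 3 of these windows, 2 overlapping ones of Mag and 1 of Cnp, and in 18.71% of all 32851 mouse windows of the same length, counting both strands. The SOX-like letters ACAATG and the TATA box letters TATAAA occurred in 0 of the 15 windows and in 12.57% and 13.62% of all windows. The EGR-like letters GTGGGCG occurred in 1 window, of Egr2, and in 7.97% of all windows. None of these motifs overlapped another in these windows. Of the 4 windows that hold a match, 3 are shown, 1 for each gene, written on the strand of the gene with the match in capitals; CTTTGT and CGCCCAC are ACAAAG and GTGGGCG on the other strand. A match describes the letters only.
Mag, chr7:30914814-30915113, minus strand: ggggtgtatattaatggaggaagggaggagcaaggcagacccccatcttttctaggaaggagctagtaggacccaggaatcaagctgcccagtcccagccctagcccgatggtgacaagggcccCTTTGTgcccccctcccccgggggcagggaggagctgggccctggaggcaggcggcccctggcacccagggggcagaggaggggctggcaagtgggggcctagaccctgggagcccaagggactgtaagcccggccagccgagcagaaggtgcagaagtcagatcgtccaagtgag
Cnp, chr11:100574689-100574988, plus strand: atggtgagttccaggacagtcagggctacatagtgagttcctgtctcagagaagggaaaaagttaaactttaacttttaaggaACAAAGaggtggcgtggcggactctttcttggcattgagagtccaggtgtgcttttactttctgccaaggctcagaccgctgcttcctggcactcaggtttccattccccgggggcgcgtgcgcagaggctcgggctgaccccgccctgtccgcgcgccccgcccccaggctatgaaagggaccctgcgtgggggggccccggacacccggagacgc
Egr2, chr10:67535249-67535548, plus strand: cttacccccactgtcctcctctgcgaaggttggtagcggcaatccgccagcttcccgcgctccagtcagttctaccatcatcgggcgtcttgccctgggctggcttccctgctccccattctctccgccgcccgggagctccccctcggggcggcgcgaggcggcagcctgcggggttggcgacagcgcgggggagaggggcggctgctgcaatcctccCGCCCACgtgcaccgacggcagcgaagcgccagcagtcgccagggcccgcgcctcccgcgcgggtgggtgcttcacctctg
The match began 126 bases before the start site in Mag, 167 bases before it in Cnp and 31 bases before it in Egr2.

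The summed normalized counts were 23520223 to 26507063 in the WT libraries and 25148575 to 33393950 in the Dock3 KO libraries. Dock3 itself showed 169, 161 and 118 normalized counts in the WT libraries and 22.4, 1.78 and 1.54 in the Dock3 KO libraries (limma with Benjamini-Hochberg adjustment, adjusted p = 0.0140 in the fit of all samples; past the threshold in 1 of 6 fits that each left out a library). The RNAs Gm42418 and Lars2 together took 17.9% and 20.3% of the summed counts in Dock3 KO replicates 1 and 2, against 3.00% to 3.64% in the other 4 libraries. The tissue label was checked on Acta1, Ckm and Myh4, genes of muscle fibres, whose lowest value in any library was 189939 normalized counts, for Ckm. Of the 10 muscle fibre genes tested, 0 passed the threshold in either direction, and their median log2 difference was 0.045. Of 7 macrophage genes, 0 passed the threshold (limma with Benjamini-Hochberg adjustment; also 0 at an unadjusted p under 0.05), with all 7 log2 differences below 0 and a median of -0.26. Of 7 endothelial genes, 0 passed (limma; also 0 at an unadjusted p under 0.05), with 2 log2 differences above 0, 5 below and a median of -0.13.

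All 8 Schwann cell and myelin genes were detected in every library, and none of them passed the test between genotypes. All 8 passed the minimum mean of 10 normalized counts. In the comparison of Dock3 KO with WT over 16031 genes, 0 of the 8 reached an adjusted p under 0.05 in limma (Benjamini-Hochberg adjustment), against 165 genes or 1.03% of all genes tested. At an unadjusted p under 0.05 the count was also 0 of 8, against 10.5% of all genes tested. Values of the 2 genotypes overlapped for all 8, whereas the groups did not overlap for 16.2% of all genes tested. Of the 8 log2 differences, 4 were above 0 and 4 below, with a median of -0.015, beside -0.0073 for all genes tested. They ranged from -1.16 for Egr2 to 0.50 for Sox10.

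**Figure D1:**
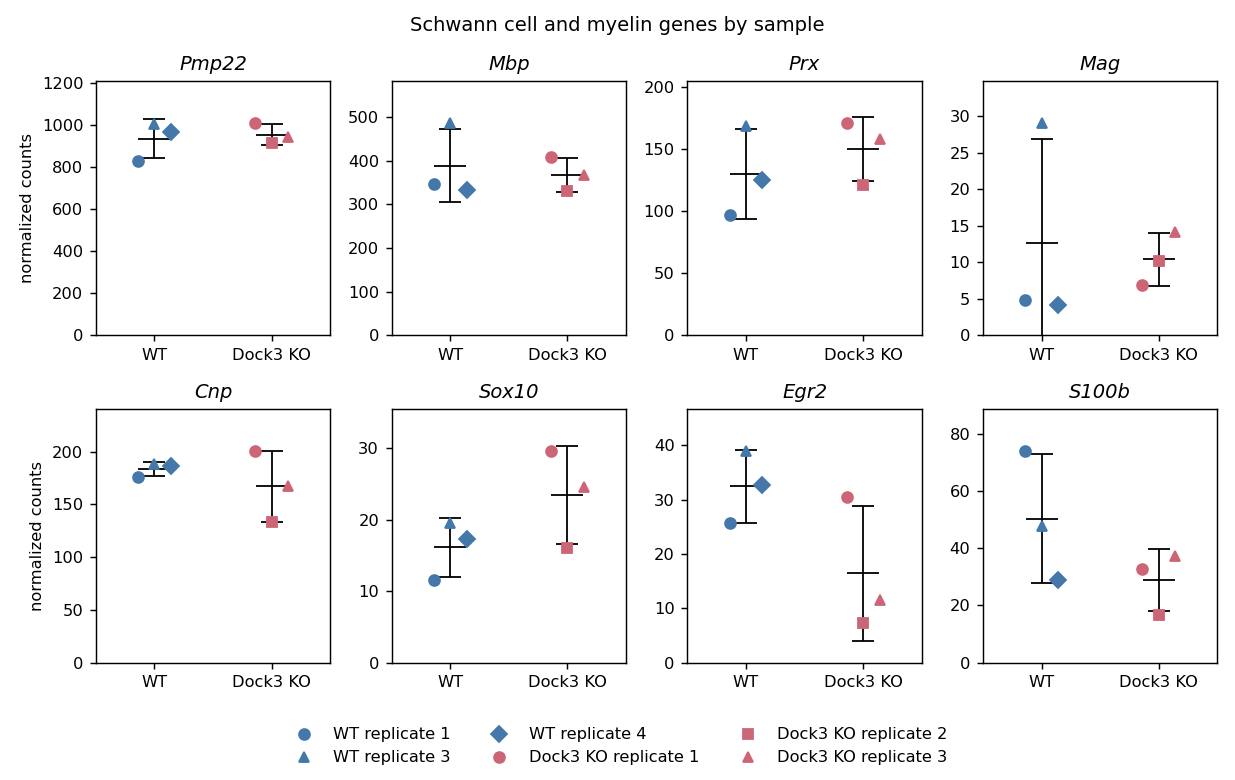
Normalized counts of the 8 genes (y axis, linear, from 0; each panel has its own scale) in WT and Dock3 KO muscle. Points are libraries, with a marker for each replicate number; horizontal lines and bars are the mean ± SD of 3 libraries, cut at 0. The groups overlap in every panel, and Pmp22 lies between 829.8 and 1008 in all 6 libraries.

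Of the genes for proteins of compact myelin, Pmp22 had the narrowest spread. It encodes a small membrane protein of the compact sheath whose gene dosage is altered in inherited neuropathies, and it is also expressed by fibroblasts and other cells outside nerve. Pmp22 (chromosome 11, 63128982 to 63159547, plus strand, GRCm38) had 829.8, 1005 and 968 normalized counts in the WT libraries and 1008, 912 and 942 in the Dock3 KO libraries. The lowest and the second highest library were both WT. Dock3 KO minus WT came to 0.033 on the log2 scale (SE 0.13), with a 95% confidence interval from -0.26 to 0.33, so that on the scale of the value plus 1 the interval spans 0.834-fold to 1.25-fold (limma adjusted p = 0.967). Without WT replicate 1 the difference was -0.050.

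Mbp encodes myelin basic protein, which binds the cytoplasmic faces of the myelin membrane; the same gene gives rise to the golli transcripts, which are made in other cells as well. Mbp (chromosome 18, 82475146 to 82585637, plus strand) had 347, 486 and 334 in the WT libraries and 408, 330.2 and 367 in the Dock3 KO libraries. WT replicate 3 was the highest and Dock3 KO replicate 2 the lowest, with the other 4 libraries between 334 and 408. Dock3 KO minus WT was -0.064 in log2 (SE 0.18, interval -0.47 to 0.35, limma adjusted p = 0.951). Leaving out WT replicate 3 gave 0.11, and leaving out Dock3 KO replicate 2 gave 0.012.

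Prx encodes periaxin, a scaffold protein of the Schwann cell membrane that links it to the surrounding basal lamina. Prx (chromosome 7, 27499324 to 27520214, plus strand) had 96.8, 169 and 125 in the WT libraries and 171, 121 and 158 in the Dock3 KO libraries. WT replicate 1 stood lowest, and the highest libraries of both groups were nearly equal. The log2 difference was 0.23 (SE 0.25, interval -0.33 to 0.78, limma adjusted p = 0.836), and 0.031 without WT replicate 1.

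Mag encodes myelin-associated glycoprotein, which sits on the innermost turn of the sheath and contacts the axon. It had the lowest level of the 8 genes. Mag (chromosome 7, 30899176 to 30914873, minus strand) had 4.79, 29.0 and 4.18 in the WT libraries and 6.85, 10.1 and 14.2 in the Dock3 KO libraries. Since 1 read is worth about 0.775 to 1.52 normalized counts in these libraries, the lower values rest on a few reads. WT replicate 3 stood above all others, and the remaining 5 libraries lay between 4.18 and 14.2. Its log2 difference was 0.18 with an interval from -1.54 to 1.91 (limma adjusted p = 0.968); its sign changed without WT replicate 1 (-0.18), when WT replicate 4 was left out (-0.26) and when Dock3 KO replicate 3 was (-0.049). The means of the normalized counts stood the other way, at 12.7 in WT and 10.4 in Dock3 KO. A difference of 2-fold in either direction would lie within this interval.

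Cnp encodes a phosphodiesterase of the uncompacted cytoplasmic channels of myelin and is expressed at lower levels in many cell types. Cnp (chromosome 11, 100574904 to 100591729, plus strand) had 176, 189 and 187 in the WT libraries and 201, 133 and 167 in the Dock3 KO libraries. The WT libraries were close together, and the Dock3 KO libraries spread to both sides of them. Its log2 difference was -0.16 (SE 0.20, interval -0.60 to 0.29, limma adjusted p = 0.867), and nearly 0 (-0.0037) without Dock3 KO replicate 2. Cnp is overlapped on the other strand by Dnajc7, S100b by Dip2a, Mbp by Rpl21-ps8 and Prx by Gm15541; the libraries were stranded per the labels, but the use of strand in counting is not given in the sources used here, so reads of such partners may not be separated.

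The transcription factors of the set pointed to opposite sides of 0 without passing the test. Sox10 is needed for every stage of the Schwann cell lineage. Sox10 (chromosome 15, 79154908 to 79165240, minus strand) had 11.5, 19.6 and 17.4 in the WT libraries and 29.6, 16.0 and 24.6 in the Dock3 KO libraries. Dock3 KO replicates 1 and 3 lay above all WT libraries, and Dock3 KO replicate 2 lay within them. This gave a log2 difference of 0.50 (SE 0.45, interval -0.50 to 1.49, limma adjusted p = 0.775). It was 0.29 without WT replicate 1, and 0.10 without WT replicate 1 and Dock3 KO replicate 1.

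Egr2, also called Krox20, starts and maintains the myelinating state, and outside Schwann cells it is an immediate early gene. Egr2 (chromosome 10, 67535475 to 67542188, plus strand) had 25.6, 38.9 and 32.7 in the WT libraries and 30.5, 7.24 and 11.5 in the Dock3 KO libraries. Dock3 KO replicates 2 and 3 lay below all WT libraries, and Dock3 KO replicate 1 lay among them. The log2 difference of -1.16 was the largest of the 8 in size (SE 0.53, interval -2.35 to 0.035, unadjusted p = 0.0559 and limma adjusted p = 0.494), and the two-sided exact permutation p was 0.2, where 0.1 is the smallest that 3 against 3 libraries allow. Over 18 alternatives the log2 difference ranged from -1.86, without WT replicate 1 and Dock3 KO replicate 1, to -0.72, with a replicate block, and its adjusted p from 0.212 to 0.940. It was -0.73 without Dock3 KO replicate 2 and -1.70 without Dock3 KO replicate 1. The related immediate early genes Egr1 and Egr3, both on a list of Schwann cell regulators, were highest in Dock3 KO replicate 1, at 1256 and 117 normalized counts, against 107 to 355 and 17.5 to 49.9 in the other 5 libraries. Dock3 KO replicate 1 was also the Dock3 KO library with the most Egr2. The part of an immediate early response in the Egr2 values was not tested.

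S100b encodes a calcium-binding protein that marks Schwann cells in nerve; adipocytes and the astrocytes of the central nervous system also express it. S100b (chromosome 10, 76253853 to 76261159, plus strand) had 74.0, 47.8 and 29.0 in the WT libraries and 32.7, 16.5 and 37.4 in the Dock3 KO libraries. WT replicate 1 was the highest and Dock3 KO replicate 2 the lowest, and the other 4 libraries of both groups were interleaved. This gave a log2 difference of -0.76 (SE 0.44, interval -1.75 to 0.23, limma adjusted p = 0.622), and -0.44 without WT replicate 1. The summed level of the 9 adipocyte genes was 2465 to 3892 in WT and 2929 to 3824 in Dock3 KO. Fabp4 made up most of this sum, with a mean of 2425 normalized counts. WT replicate 4 had a summed level of 3873 but was the lowest library for 6 of the 9 genes. Of these 9 genes, 0 passed the threshold, with 7 log2 differences above 0, 2 below and a median of 0.41. At an unadjusted limma p under 0.05 there were 2, Lep and Retn, against 10.5% of all genes tested. Their log2 differences were 2.26 and 1.81 (limma adjusted p = 0.324 and 0.419). The defining adipocyte genes Adipoq, Plin1 and Cidec were highest in WT replicate 3 or Dock3 KO replicate 1. The part of adipocytes in the S100b values was not tested.

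**Figure D2:**
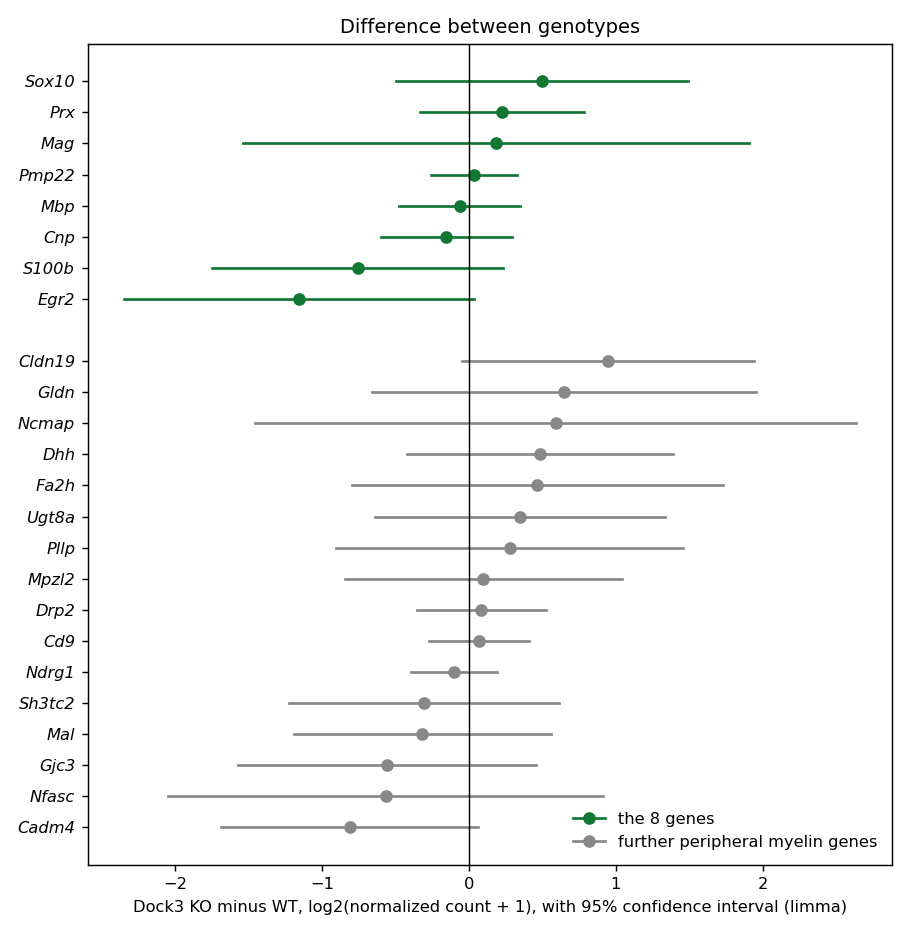
Log2 difference, Dock3 KO minus WT, on the scale of log2(normalized count + 1) (x axis) for the 8 genes (green) and for 16 further peripheral myelin genes (grey); points are estimates and lines are 95% confidence intervals from limma over 3 libraries a group. The intervals of all 8 genes include 0, from the narrowest for Pmp22 to the widest for Mag.

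Per kilobase of merged exons, which sets genes of different length on a common scale but counts every annotated isoform, Pmp22 stood far above the others. Its level, in normalized counts per kilobase, was 397 ± 39.3 (SD, n = 3) for WT and 405 ± 20.8 (SD, n = 3) for Dock3 KO. In WT it was followed by Cnp at 50.5 ± 1.87, Mbp at 46.0 ± 9.94, S100b at 33.9 ± 15.2 and Prx at 23.4 ± 6.51 (SD, n = 3), 4 genes of which each neighbouring pair overlapped between libraries. Egr2 at 9.54 ± 1.96 and Sox10 at 5.30 ± 1.36 did not overlap with each other in WT, and Mag at 3.11 ± 3.48 overlapped with Sox10 (SD, n = 3). In Dock3 KO the means were 45.9 ± 9.23 for Cnp, 43.5 ± 4.60 for Mbp, 26.9 ± 4.61 for Prx and 19.5 ± 7.39 for S100b (SD, n = 3). They were 7.67 ± 2.25 for Sox10, 4.83 ± 3.65 for Egr2 and 2.55 ± 0.903 for Mag (SD, n = 3). The pairs S100b and Prx, and Egr2 and Sox10, stood in the opposite order by their means, and within Dock3 KO the ranges of each of these pairs overlapped. Compared within each Dock3 KO library, Prx stood above S100b and Sox10 above Egr2 every time. In WT, Egr2 stood above Sox10 in every library, and S100b above Prx in replicates 1 and 3 but not 4. The summed level of the 8 genes was 569 ± 51.6 (SD, n = 3) normalized counts per kilobase for WT and 556 ± 49.3 (SD, n = 3) for Dock3 KO.

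**Figure D3:**
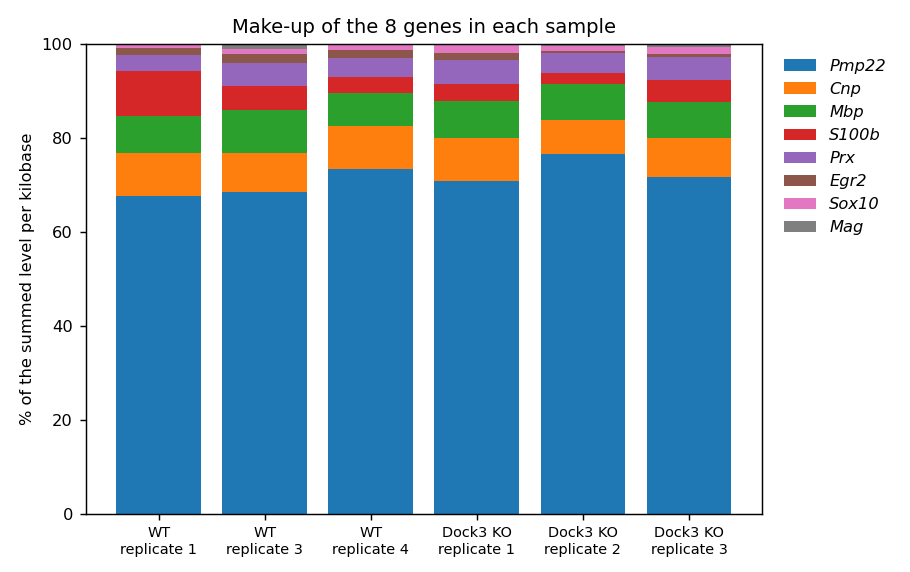
Share of each gene in the summed level per kilobase of the 8 genes (y axis, percent), with 1 stacked bar per library. Pmp22 makes up 67.6% to 76.6% of the sum in every library, and S100b has its largest share, 9.56%, in WT replicate 1.

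The genes were also set against each other within libraries, as log2 ratios of the values plus 1. Of the 28 pairs among the 8 genes, the log2 ratios of 5 (17.9%) did not overlap between genotypes. Over all pairs of genes tested the share was 16.8%, so the count for these genes was near the background. The largest shift was in Sox10 against Egr2. Its log2 ratio was -1.09, -0.96 and -0.88 in WT and -0.042, 1.05 and 1.03 in Dock3 KO, a difference of 1.65 between the means. For this pair the two-sided exact permutation p was 0.1, the smallest possible, without adjustment over the 28 pairs. The other 4 pairs were Pmp22 with Egr2, Prx with Egr2, S100b with Sox10 and Sox10 with Cnp.

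A list of 17 further peripheral myelin genes likewise held no call. Of these, 16 were tested and 0 passed the threshold in either direction (limma with Benjamini-Hochberg adjustment; also 0 at an unadjusted p under 0.05), with 10 log2 differences above 0 and 6 below and a median of 0.090. Ncmap, a myelin membrane protein of peripheral nerve, was listed at 1.0 in WT replicate 1 and at 11.0 to 24.3 in the other 5 libraries.

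Among the most abundant of these further genes, Cd9 and Ndrg1 had log2 differences of 0.070 and -0.10, and Drp2, a partner of periaxin, had one of 0.082. Mal, a membrane protein of compact myelin, had a log2 difference of -0.32 (limma adjusted p = 0.858). Gjc3 and Mpzl2 had log2 differences of -0.56 and 0.098 (limma adjusted p = 0.750 and 0.970). Cadm4, an adhesion protein of the Schwann cell surface that faces the axon, had groups that did not overlap (WT 35.6 ± 9.51, Dock3 KO 19.6 ± 4.46, SD, n = 3 each; limma adjusted p = 0.512). This was 1 of the 16 genes tested, beside 16.2% of all genes tested.

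WT replicate 1 stood apart in some genes of neurons and of the central nervous system. On the list of axon and neuron genes, 6 of the 13 genes above 0 were highest there. The list also holds genes of peripheral axons, such as Prph. Its summed level was 1269 in WT replicate 1 and 637 and 644 in the other WT libraries, against 708 to 915 in Dock3 KO. Mapt, the most abundant gene of the list, had 678, 409 and 425 in the WT libraries and 670, 647 and 579 in Dock3 KO. Snap25, a protein of synaptic vesicle fusion, had 247, 5.0 and 3.24 in the WT libraries and 74.6, 0 and 3.87 in the Dock3 KO libraries. Syt1, a calcium sensor of synaptic vesicles, was listed at 76.3 in WT replicate 1 and 26.4 in Dock3 KO replicate 1, and at most at 8.32 elsewhere. Of the central myelin genes, a list that includes Mag, 3 of the 8 above 0 were highest in WT replicate 1. The summed level of this list was 173 there, 74.5 and 36.4 in WT replicates 3 and 4 and 26.9 to 70.03 in Dock3 KO. In WT replicate 3 most of the sum was Mag and Ermn, at 29.0 and 35.2. Mobp, a protein of central myelin, was listed at 109.9 in WT replicate 1, which was most of the sum there. It was listed at 15.5 in Dock3 KO replicate 1 and at 0 to 2.74 in the other 4. Opalin, another defining gene of central oligodendrocytes, was listed at 0 in every library, and Mog at no more than 5.41. Gfap, an astrocyte filament that non-myelinating Schwann cells also make, was listed at 45.5 in WT replicate 1 and 18.1 in Dock3 KO replicate 1.

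Mbp, Mag, Cnp, S100b and Sox10 are expressed in the central nervous system as well as in nerve, whereas Prx is known mainly from peripheral myelin. Pmp22 is a peripheral myelin gene that fibroblasts and other cells outside nerve also express. In WT replicate 1, S100b was the highest of the 6 libraries, and Pmp22, Prx, Sox10 and Ncmap were the lowest. Mbp, Mag and Cnp were neither highest nor lowest there, at 347, 4.79 and 176 normalized counts. Of the 17 further myelin genes, 7 were lowest and 2 were highest in WT replicate 1. Where the RNAs of these neuronal and glial genes came from was not tested. The part of central nervous system RNA in the values of the 8 genes was not tested beyond leaving libraries out. In fits that left out WT replicate 1 alone or together with Dock3 KO replicate 1, the number of the 8 genes past the threshold was again 0.

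**Figure D4:**
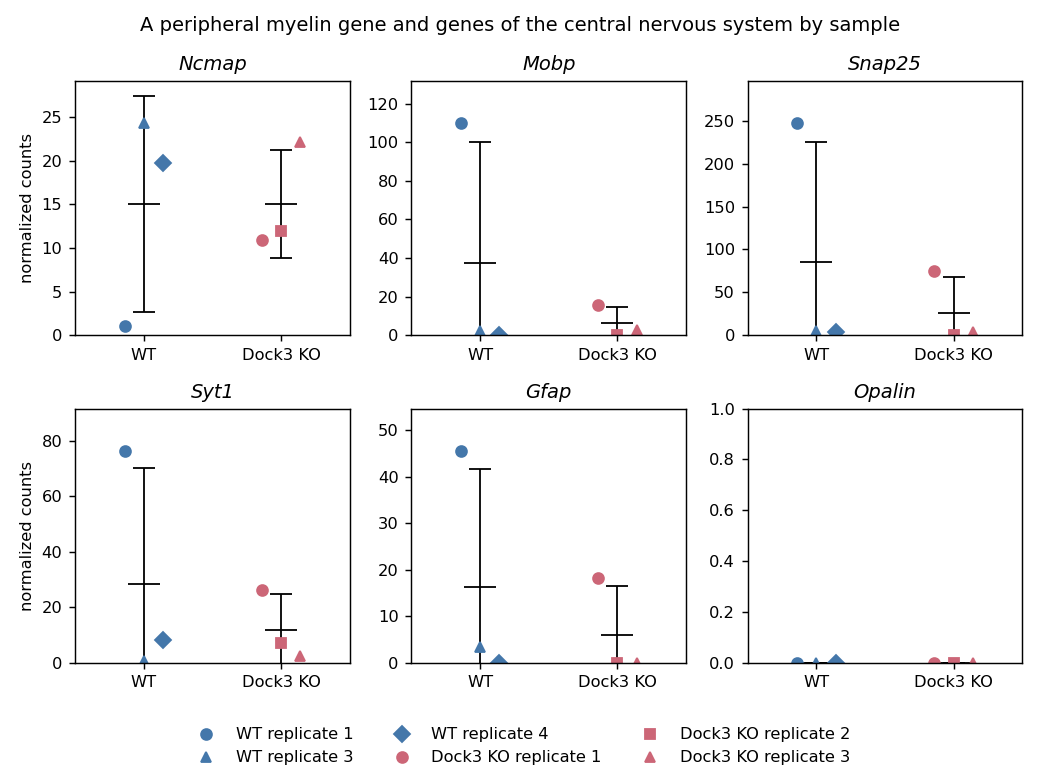
Normalized counts (y axis, linear, from 0; each panel has its own scale) of Ncmap, a peripheral myelin gene, and of 5 genes of neurons, astrocytes and central myelin in WT and Dock3 KO muscle. Points are libraries; lines and bars are the mean ± SD of 3 libraries, cut at 0. WT replicate 1 is the highest for Mobp, Snap25, Syt1 and Gfap and the lowest for Ncmap. Opalin is at 0 throughout. Snap25, Syt1 and Gfap were chosen for display after their values were seen. On the lists of axon and neuron genes and of central myelin genes, 6 of 13 and 3 of 8 genes above 0 were highest in WT replicate 1. Others were highest elsewhere, such as Nefh and Olig2 in Dock3 KO replicate 1.

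Receptors and ligands of axon to Schwann cell signalling were next. Of 12 such genes tested, 0 passed the threshold (limma with Benjamini-Hochberg adjustment), with 6 log2 differences above 0, 6 below and a median of -0.017. At an unadjusted limma p under 0.05 there was 1, against 10.5% of all genes tested. Erbb3, the receptor that binds neuregulin, had 166, 191 and 199.9 in the WT libraries and 121, 112 and 128 in the Dock3 KO libraries. Each Dock3 KO library lay below each WT library. The log2 difference was -0.62 (SE 0.19, interval -1.03 to -0.20, limma adjusted p = 0.227), and it lay between -0.89 and -0.51 over 19 alternatives, none of which brought it past the threshold. Erbb2, its signalling partner, was also without overlap, with means of 124 ± 7.45 for WT and 94.1 ± 12.4 for Dock3 KO (SD, n = 3 each; limma adjusted p = 0.567). These were the 2 of 12 genes tested whose groups did not overlap, near the share of 16.2% over all genes tested. Nrg1, the gene of neuregulin itself, was listed between 0 and 6.24 and was not tested.

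Of 11 non-myelinating and repair Schwann cell genes tested, 4 had an unadjusted p under 0.05 in limma in either direction, against 10.5% of all genes tested. After adjustment 1 passed the threshold, with a lower value in Dock3 KO, and lower calls made up 0.586% of all genes tested. This was Ncam1, a cell adhesion molecule that muscle fibres and satellite cells also express, with means of 188 ± 37.8 for WT and 78.7 ± 14.9 for Dock3 KO (SD, n = 3 each; log2 difference -1.24, limma adjusted p = 0.0464). It passed in none of the 6 fits that each left out 1 library, where the adjusted p was 0.0514 to 0.210 (limma). The list's median log2 difference was -0.65, with 3 above 0 and 8 below, and 4 of the 11 genes did not overlap between groups, against 16.2% of all genes tested. Scn7a, a sodium channel of non-myelinating Schwann cells, was nearly level, with means of 880 ± 50.3 for WT and 851 ± 105 for Dock3 KO (SD, n = 3 each). Cdh19, a cadherin of the Schwann cell lineage, had 69.2, 43.0 and 88.2 in the WT libraries and 44.2, 39.6 and 24.7 in the Dock3 KO libraries (limma adjusted p = 0.448). Ngfr, the low-affinity neurotrophin receptor, had 19.3, 18.7 and 20.1 in the WT libraries and 8.40, 6.22 and 17.7 in the Dock3 KO libraries (limma adjusted p = 0.617). Gdnf, a trophic factor for motor neurons, had a log2 difference of -1.32 and Matn2, a matrix protein, one of 0.64 (limma adjusted p = 0.213 and 0.269).

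**Figure D5:**
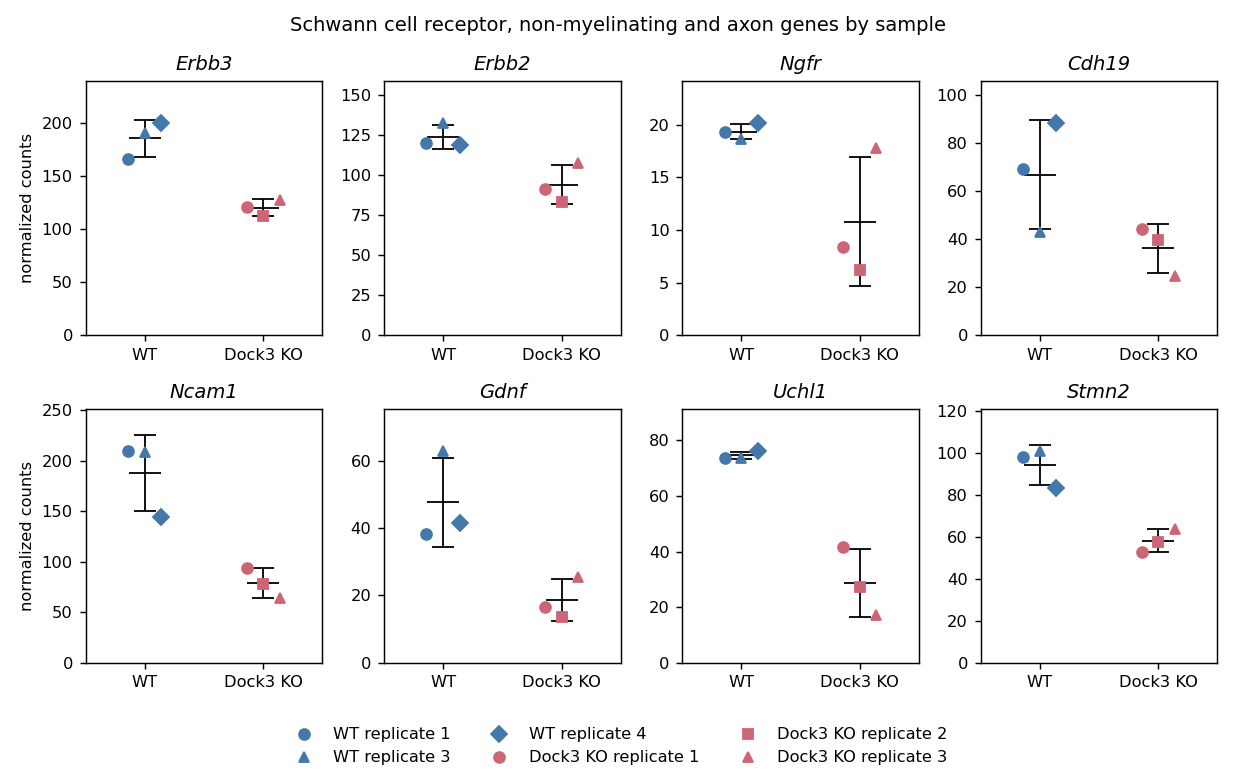
Normalized counts (y axis, linear, from 0; each panel has its own scale) of 8 genes from the lists of axon to Schwann cell signalling, non-myelinating Schwann cells and axons, chosen for display after their values were seen. Points are libraries; lines and bars are the mean ± SD of 3 libraries. The groups overlap for Cdh19 and not for the other 7, which were picked from lists in which 2 of 12, 4 of 11 and 3 of 7 genes tested did not overlap, beside 16.2% of all genes tested. Of the 8 genes shown, Ncam1 passed the threshold.

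Of the axon and neuron genes, 7 of 14 were tested and 0 passed (limma with Benjamini-Hochberg adjustment; 2 at an unadjusted p under 0.05, against 10.5% of all genes tested), with 1 log2 difference above 0 and a median of -0.68. Groups did not overlap for 3 of the 7, Uchl1, Stmn2 and Tubb3, a tubulin of neurons, against 16.2% of all genes tested. Uchl1, a deubiquitinase abundant in axons, had 73.7, 73.8 and 76.2 in the WT libraries and 41.6, 27.3 and 17.2 in the Dock3 KO libraries. The WT values were close together and all Dock3 KO values lay below them. The log2 difference was -1.43 (SE 0.35, interval -2.22 to -0.64, limma adjusted p = 0.127), and rescaling the libraries to the same total brought it past the threshold (adjusted p = 0.0374), which also moved the median of all genes to -0.28. Stmn2, a regulator of axonal microtubules, did not overlap either, with means of 94.2 ± 9.52 for WT and 58.2 ± 5.55 for Dock3 KO (SD, n = 3 each; limma adjusted p = 0.309). Prph, a filament of peripheral axons, had a log2 difference of -0.68 (limma adjusted p = 0.750). Of the 6 genes below 0, Snap25, Syt1 and Tubb3 were highest in WT replicate 1, and Prph, Uchl1 and Stmn2 in another WT library. Snap25 and Syt1 had 247 and 76.3 in WT replicate 1 and at most 8.32 in the other WT libraries. The direction of the list thus rests in part on WT replicate 1. Without it Uchl1 and Stmn2 stayed below 0, at -1.44 and -0.65, and the list as a whole was not tested. The filament gene Nefl was listed at 12.4, 0 and 3.33 in WT and was too low to be tested.

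Of 14 Schwann cell regulators tested, 0 passed (limma with Benjamini-Hochberg adjustment), with a median log2 difference of 0.12. At an unadjusted limma p under 0.05 there were 2, Nfatc4 and Id2, against 10.5% of all genes tested. Their log2 differences were 0.63 and -0.66 (limma adjusted p = 0.449 and 0.334). Pou3f1, the factor that brings Schwann cells to the promyelinating stage with Sox10, had a log2 difference of -0.41 (interval -1.88 to 1.06, limma adjusted p = 0.903). Of the sheath cells around nerve, 11 perineurial and endoneurial genes were tested and 0 passed (limma). Their log2 differences were above 0 for 6 and below for 5, with a median of 0.014. At an unadjusted limma p under 0.05 there was 1, against 10.5% of all genes tested. Cldn1 and Lypd2, perineurial markers, had log2 differences of 0.29 and 0.15 (limma adjusted p = 0.814 and 0.962). Groups did not overlap for 2 of the 11, Osr2 and Ngfr, both with lower values in Dock3 KO, beside 16.2% of all genes tested. Osr2, named after its values were seen, had a log2 difference of -0.72 (limma adjusted p = 0.326). Of 10 fibroblast genes, 4 had an unadjusted p under 0.05 in limma in either direction, against 10.5% of all genes tested. Groups did not overlap for 5 of them, against 16.2%, and 5 log2 differences were above 0 and 5 below. After adjustment 2 of the 10 passed, both collagens and both higher in Dock3 KO, against 0.443% of all genes tested that were called higher. These were Col1a1 and Col3a1, with log2 differences of 1.38 and 0.87 (limma adjusted p = 0.0228 and 0.0168). The summed level of the fibroblast list was 69956 to 77411 in WT and 75755 to 84753 in Dock3 KO. Its most abundant genes, Gsn and Dcn, had means of 35108 and 17047 over all libraries. Their log2 differences were -0.056 and -0.28, so the sum mixes both directions. The defining fibroblast genes Pdgfra and Dpt had log2 differences of 0.15 and 0.26 (limma adjusted p = 0.722 and 0.643). Fibroblasts also express Pmp22, and the part of fibroblasts in the Pmp22 values was not tested.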

How the data were processed

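Normalized counts per gene, a signal that is neither whole nor of fixed sum, were deposited by the authors for 6 libraries. The submitters' processing notes name FastQC, Trim Galore 0.4.5, Salmon 0.12.0, DESeq2 1.22.1, R 3.5.3 and the builds mm10 and GRCm38; which step made these values, and with which annotation, is not given in the sources used here. All 54393 identifiers matched GENCODE M21 (GRCm38). Approximate depth, from the most frequent low value, was 21700000 to 32500000 reads; 21.4% to 36.7% of low values (under 20 such units) were whole multiples of it within 0.02, so whole reads were not recovered and count tests were not run. No counting interval is given.

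Values were tested as log2(value + 1) for genes with a mean of at least 10, with limma 3.58.1 in R 4.3.3 (trended prior variance, no covariates), Benjamini-Hochberg adjusted over all genes; the threshold was 0.05. The fit was tested on simulated data. Exact permutation tests used scipy 1.17.1 (Python 3.11.15). Samples were grouped by genotype label.

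The 8 genes and the marker lists were chosen with earlier results of these data known. Named were the 8 genes, Dock3, list genes past the threshold, the most abundant further myelin genes and the 5 most similar genes. Defining genes of the lists were named in part, and for endothelium and macrophages not at all. Other named genes were chosen after their values were seen. Some listed genes are not reported here and were left out of the lists. Alternatives were other pseudocounts, filters, scalings, priors, a replicate block, a covariate and left-out libraries.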

Additional observations from a re-analysis of the deposited data

How the results depend on the processing

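The number of the 8 genes past the threshold was 0 under all 19 alternatives, as was the number of further peripheral myelin genes. The number of all genes called, 165, was 104 with a prior variance without trend, 57 with log2 Gm42418 as a covariate, 49 without Dock3 KO replicates 1 and 2, and 98 to 159 when 1 library was left out (98 for WT replicate 4 and 100 for Dock3 KO replicate 2). The cause of these moves was not tested. Differences near 0 changed sign. Rescaled to the same total, which shifted the median of all genes to -0.28, Pmp22 was at -0.24, Prx at -0.049 and Mag at -0.059; rescaled without Gm42418 and Lars2, Pmp22 was at -0.070. Without WT replicate 1 and Dock3 KO replicate 1, an alternative chosen after seeing the data, Pmp22 was at -0.091 and Prx at -0.070. In that fit Mbp kept its sign, at -0.21. With 1 library left out, Mbp ranged from -0.16 to 0.11, Pmp22 from -0.050 to 0.088, Prx from 0.031 to 0.43 and Mag from -0.26 to 1.0; Pmp22 changed sign with either replicate 1 left out, WT (-0.050) or Dock3 KO (-0.0074). With the replicate block, Mag was at -0.27 and Cnp at 0.0077, and 127 genes were called. The same-numbered libraries, replicates 1 and 3, correlated at 0.065 and 0.0066 in their deviations from the group means. With so few libraries these values cannot show whether same-numbered libraries shared handling, which was not tested. S100b, Sox10 and Egr2 kept their signs under all 18 alternatives in which they were tested; a minimum mean of 50 left out these 3 genes and Mag. EdgeR and DESeq2 were not run, since whole reads were not recovered. Depth limits Mag, Sox10 and Egr2 most, whose means were 11.5, 19.8 and 24.4 normalized counts.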

Other observations

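Myelin membrane is rich in cholesterol and galactolipids, and a list of lipid synthesis genes was read from the same fit. Of 13 genes tested, 0 passed the threshold (limma with Benjamini-Hochberg adjustment), with 4 log2 differences above 0, 9 below and a median of -0.18. At an unadjusted limma p under 0.05 there were 3, against 10.5% of all genes tested. WT replicate 3 was the highest library for 9 of the 15 listed genes, and the summed level of the list was 10703 there against 6982 and 6987 in the other WT libraries. Fasn, the fatty acid synthase, had 2584 in WT replicate 3 and 886 and 668 in the other WT libraries. Srebf1, a transcription factor of fatty acid synthesis, had 1354, 1587 and 1256 normalized counts in the WT libraries and 979.9, 859 and 1078 in the Dock3 KO libraries, groups without overlap (log2 difference -0.52, limma adjusted p = 0.182). Of the 13 genes tested, 2 had groups without overlap, beside 16.2% of all genes tested. Scd2, a fatty acid desaturase, had a log2 difference of -0.73 (limma adjusted p = 0.292). These genes are active in fibres, fat and other cells of muscle as well.

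The profile of the 8 genes, the mean of their standardized log2 values, was highest in WT replicate 3 (0.918) and Dock3 KO replicate 1 (0.596) and lowest in Dock3 KO replicate 2 (-0.896) and WT replicate 1 (-0.54). The 5 protein-coding genes most like it among 13429 were Mrm2, Ubox5, Gm3854, Mfsd12 and Unc5b, with likeness, as Pearson's r over the 6 libraries, of 0.988 to 0.992; with 6 points that share their libraries and scaling this is a description only. Of the further myelin genes, Ndrg1 was the most alike, at rank 620.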
